A study of Mus musculus with 8 samples.

Results

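Toll-like receptors, the co-receptor gene Cd14 and the adaptors that carry their signal were measured by RNA-seq in MC3T3, a line of mouse bone-forming precursor cells. The set holds 10 genes chosen by gene name, Tlr1, Tlr2, Tlr3, Tlr4, Tlr6, Cd14, Ly96, Myd88, Ticam1 and Irak3, of 43346 genes in the count table. All 10 had reads and passed the filter on low counts, as did 14991 genes in all. In the LLC_CM group, of 4 libraries, 25% of the medium was conditioned medium from LLC1, the Lewis lung carcinoma line of the mouse. The NCM group held 4 libraries, taken as the vehicle control by elimination, since the labels do not spell the name out. Culture lasted 7 days in both groups, with ascorbic acid (100 ug/mL) and beta-glycerophosphate (10 mM) to drive mineralization. The tumor cells had been in serum-free medium when their medium was collected and filtered. The labels name no separate cultures behind the replicates, so the spread behind each p-value is that between libraries and may be technical.

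Toll-like receptors recognise microbial molecules and molecules released by damaged tissue. TLR1, TLR2, TLR4 and TLR6 act mainly at the cell surface and TLR3, a sensor of double-stranded RNA, acts in endosomes. TLR2 works as a pair with TLR1 or TLR6, and TLR4 needs the protein encoded by Ly96 to see lipopolysaccharide, which Cd14 hands over. The adaptor MYD88 serves all of these receptors except TLR3 and leads to NF-kB, while the adaptor TRIF, encoded by Ticam1, serves TLR3 and TLR4 and leads to interferon genes as well. Irak3 encodes a kinase-like protein that holds back MYD88 signalling and is best known from macrophages. In bone, osteoblasts carry several of these receptors, and their ligands are known to raise cytokine output.

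Library totals ran from 27264212 to 35573953 counts, and a count of 3, used here as the floor, was worth 0.084 to 0.111 CPM (counts scaled by library size and TMM factors). The main axis of variation held 76.4% of the variance of log2 CPM and separated LLC_CM from NCM. The osteoblast markers Runx2, Sp7, Alpl, Col1a1, Ibsp and Bglap, all 6, had reads in every library, which alone does not settle the identity of the cells. All 6 were lower in LLC_CM, with Runx2 at 237 ± 14.1 CPM in LLC_CM and 470 ± 31.2 CPM in NCM, and Bglap, the late marker osteocalcin, at 1.55 ± 0.28 CPM in LLC_CM and 128 ± 33.2 CPM in NCM (SD, n = 4). Macrophages carry many Toll-like receptors. Of 13 macrophage markers, Tyrobp and Itgam had no count in any library, and Ptprc and Adgre1 had 0 counts over LLC_CM and 4 and 3 over NCM. The summed level of the macrophage list ran from 19.1 to 32.7 CPM in LLC_CM and from 11.8 to 17.8 CPM in NCM, and most of it was Lyz2. Without Lyz2 it ran from 3.61 to 4.09 CPM in LLC_CM and from 2.30 to 3.51 CPM in NCM. Of the 5 macrophage markers tested, 2 were higher, Lyz2 at 20.3 ± 5.92 CPM in LLC_CM against 11.5 ± 2.65 CPM in NCM, and Fcer1g at 1.25 ± 0.17 against 0.43 ± 0.13 CPM (SD, n = 4). The other tested markers, Cd68, Csf1r and Spi1, were not called (edgeR, adjusted p = 0.71, 0.2 and 0.055). They stood at 1.37, 0.86 and 0.35 CPM in LLC_CM, against 1.26, 1.21 and 0.13 CPM in NCM. The part of the macrophage markers in the results below was not tested. Of 5 epithelial markers Epcam, Krt8 and Krt18 had no count, and the list summed to at most 0.161 CPM in LLC_CM and 0.177 CPM in NCM. Of 5 endothelial markers only Vwf was tested, at 1.41 CPM in LLC_CM and 2.34 CPM in NCM.

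Of the 10 genes, 6 were higher in LLC_CM, none was lower and 4 were not called. The 6 were Irak3, Tlr3, Tlr1, Myd88, Cd14 and Tlr4, in order of the size of the change. A gene was called at an adjusted p below 0.05, by the quasi-likelihood test of edgeR with adjustment over all 14991 genes. Of these, 36.9% were called, 18.8% higher and 18.1% lower. The median log2 fold change was 0.45 over the 10 genes and 0.01 over all genes tested. The 4 LLC_CM values lay beyond the 4 NCM values for the same 6 genes, a separation that 36.3% of all tested genes showed. In bulk RNA a change in RNA per cell and a change in the share of cells that express a gene cannot be told apart.

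**Figure D1:**
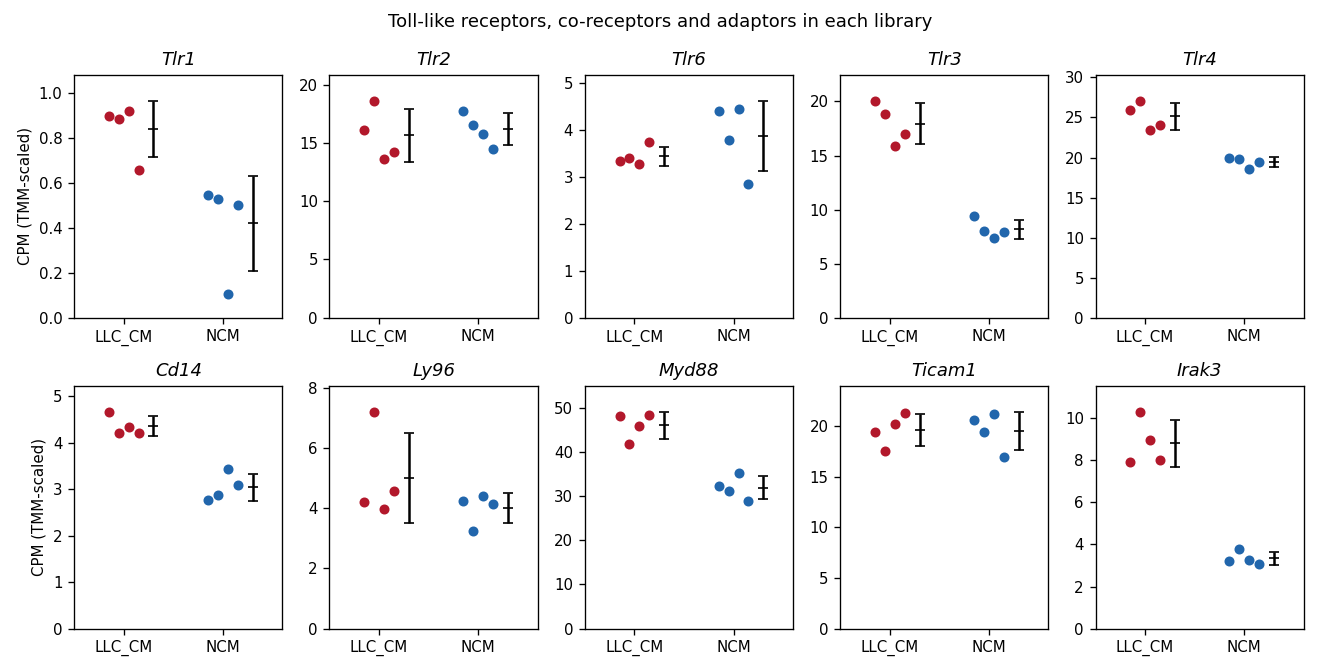
Level of each of the 10 genes in each library, in CPM on an axis from 0, with LLC_CM in red and NCM in blue. Points are libraries and the bar beside each group is its mean ± SD (n = 4). Tlr3 and Irak3 have no LLC_CM value near an NCM value, at 15.8 or more against 9.45 or less CPM for Tlr3, while the groups of Tlr2 and Ticam1 lie over each other.

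Among the receptors the largest change was in Tlr3, the endosomal sensor of double-stranded RNA (ENSMUSG00000031639, chromosome 8, 45395665 to 45410608 in mm10). Tlr3 stood at 20.1, 18.9, 15.8 and 17.0 CPM in LLC_CM, against 9.45, 8.01, 7.35 and 7.89 CPM in NCM. The lowest LLC_CM library was above the highest NCM library. The difference was 2.19-fold, with a log2 fold change of 1.13 ± 0.11 (SE, edgeR, adjusted p = 8.1e-07). A change of this size or larger was seen in 7.52% of tested genes. In the M21 annotation of GENCODE an antisense gene model, Gm45542, shared 7.32% of the exonic bases of Tlr3, and the library kit named in the labels does not mark strand. That share is of 5207 bases in M21, while the length of Tlr3 in the count table was 4396. Gm45542 was not found in the count table, so its own level is not known.

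Tlr4, the lipopolysaccharide receptor (ENSMUSG00000039005, chromosome 4, 66827584 to 66930284), rose by a smaller amount. It stood at 26.0, 27.1, 23.4 and 24.1 CPM in LLC_CM, against 19.9, 19.8, 18.6 and 19.4 CPM in NCM. All NCM libraries lay below the lowest LLC_CM library. The difference was 1.29-fold, with a log2 fold change of 0.37 ± 0.08 (SE, edgeR, adjusted p = 0.0013).

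Tlr2 (ENSMUSG00000027995, chromosome 3, 83836272 to 83841767), the shared chain of the lipopeptide receptors, was not called. It stood at 16.1, 18.6, 13.6 and 14.2 CPM in LLC_CM, against 17.8, 16.5, 15.8 and 14.5 CPM in NCM, and the groups overlapped. Its log2 fold change was -0.05 ± 0.11 (SE, edgeR, adjusted p = 0.76), and the 95% interval of the fold ran from 0.824 to 1.13. A rise as large as that of Tlr3 or Tlr4 as estimated here lies outside that interval.

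The partner chains of TLR2 gave fewer reads. Tlr6 (ENSMUSG00000051498, chromosome 5, 64953106 to 64960048) stood at 3.35, 3.40, 3.28 and 3.74 CPM in LLC_CM, against 4.40, 3.79, 4.45 and 2.84 CPM in NCM. The groups overlapped, and the log2 fold change of -0.17 ± 0.16 was not called (SE, edgeR, adjusted p = 0.46, 95% interval of the fold 0.701 to 1.13). Tlr1 (ENSMUSG00000044827, chromosome 5, 64924811 to 64932761), the neighbouring gene, had the fewest reads of the 10, 28, 24, 33 and 22 counts in LLC_CM against 16, 15, 3 and 16 counts in NCM. These made 0.902, 0.888, 0.924 and 0.658 CPM in LLC_CM and 0.546, 0.531, 0.106 and 0.505 CPM in NCM.

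The rise of Tlr1 was the weakest of the 6 calls, with a log2 fold change of 0.98 ± 0.37 (SE, edgeR, adjusted p = 0.047) and a 95% interval of the fold from 1.15 to 3.39. NCM replicate 3, at 3 counts, sat at the floor, and without it the log2 fold change was 0.66 (adjusted p = 0.11). The call was also lost without LLC_CM replicate 1, 2 or 3 (0.097, 0.074 and 0.089) or NCM replicate 1, 2 or 4 (0.054, 0.062 and 0.064), and kept only without LLC_CM replicate 4 (0.048). Transcripts of Tlr1 and Tlr6 matched at 88.8% identity over 1328 bases, so how reads were split between them is uncertain.

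Among the proteins that help TLR4 see lipopolysaccharide, Cd14 rose and Ly96 was not called. Cd14 (ENSMUSG00000051439, chromosome 18, 36725074 to 36726736), which encodes the lipopolysaccharide-transferring co-receptor, stood at 4.67, 4.22, 4.34 and 4.21 CPM in LLC_CM, against 2.76, 2.87, 3.43 and 3.09 CPM in NCM. The groups did not overlap, and the difference was 1.44-fold (log2 0.52 ± 0.14, SE, edgeR, adjusted p = 0.0073). Ly96 (ENSMUSG00000025779, chromosome 1, 16688051 to 16709611), which encodes the partner that completes the TLR4 receptor, stood at 4.22, 7.21, 3.98 and 4.57 CPM in LLC_CM, against 4.23, 3.26, 4.41 and 4.13 CPM in NCM.

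LLC_CM replicate 2 stood highest for Ly96, and the other 3 LLC_CM libraries, at 3.98 to 4.57 CPM, overlapped the NCM range. Its log2 fold change was 0.31 ± 0.19 (SE, edgeR, adjusted p = 0.22), and 0.08 (adjusted p = 0.71) without that library. LLC_CM replicate 2 also had the highest values of its group for Tlr2, Tlr4 and Irak3. It had the lowest for Myd88 and Ticam1, at 41.7 and 17.6 CPM. The macrophage marker Lyz2 was highest there too, at 28.7 CPM against 15.1 to 19.6 CPM in the other LLC_CM libraries. Without Lyz2 the macrophage list summed to 3.96 CPM there, inside the LLC_CM range of 3.61 to 4.09 CPM. The calls of Tlr4 and Irak3 remained without LLC_CM replicate 2, at log2 fold changes of 0.33 and 1.32 (adjusted p = 0.0036 and 9.6e-07).

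**Figure D2:**
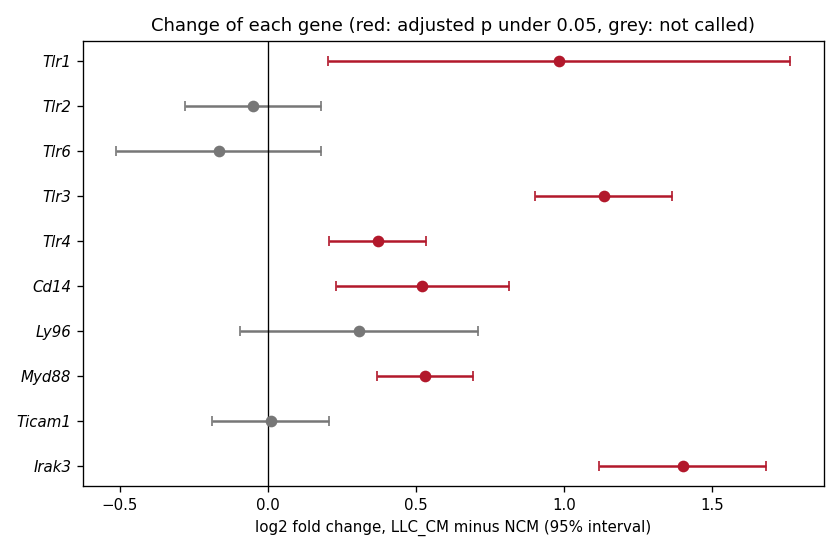
Log2 fold change of each gene, LLC_CM minus NCM, with its 95% interval from the edgeR fit. The 6 called genes are red and the 4 others grey. Irak3 lies farthest right at 1.40 and Tlr3 next at 1.13, and the widest interval is that of Tlr1.

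The adaptors differed from each other in their response. Myd88 (ENSMUSG00000032508, chromosome 9, 119335934 to 119341411), the adaptor shared by nearly all of the family, rose. It stood at 48.2, 41.7, 46.0 and 48.3 CPM in LLC_CM, against 32.2, 31.2, 35.4 and 28.9 CPM in NCM. All LLC_CM libraries lay above all NCM libraries, by 1.44-fold in the fit (log2 0.53 ± 0.08, SE, edgeR, adjusted p = 5.1e-05). Exons of Acaa1a on the other strand shared 11.3% of the exonic bases of Myd88, and Acaa1a itself was at 50.2 ± 4.38 CPM in LLC_CM and 47.6 ± 6.35 CPM in NCM (SD, n = 4, edgeR, adjusted p = 0.55).

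Ticam1 (ENSMUSG00000047123, chromosome 17, 56269319 to 56276786), which encodes TRIF, the adaptor that TLR3 depends on, was not called. It stood at 19.4, 17.6, 20.2 and 21.4 CPM in LLC_CM, against 20.7, 19.5, 21.2 and 16.9 CPM in NCM. The groups overlapped throughout, the log2 fold change was 0.01 ± 0.09 (SE, edgeR, adjusted p = 0.96), and the 95% interval of the fold ran from 0.877 to 1.15. That interval does not reach the fold estimated for Myd88.

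The inhibitor Irak3 (ENSMUSG00000020227, chromosome 10, 120141648 to 120202130) had the largest change of the 10. It stood at 7.92, 10.3, 8.99 and 8.01 CPM in LLC_CM, against 3.21, 3.79, 3.25 and 3.09 CPM in NCM. Every LLC_CM library was more than 2 times the highest NCM library, and the fitted difference was 2.64-fold (log2 1.40 ± 0.13, SE, edgeR, adjusted p = 7.1e-07). A change of this size or larger was seen in 5.70% of tested genes. Tmbim4 on the other strand shared 5.22% of the exonic bases of Irak3, and was at 59.6 ± 6.90 CPM in LLC_CM and 61.0 ± 1.73 CPM in NCM (SD, n = 4, edgeR, adjusted p = 0.75).

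The promoters of the 2 adaptors are shown because the adaptors differed in their response. Each run below lies within 250 bases before the RefSeq start, outside any exon of GENCODE M21. Both are on the minus strand of GRCm38.p6 and written in the direction of the gene. The Myd88 run lies inside the span given above for Myd88, and inside that of Acaa1a (119339676 to 119350299). Its RefSeq start is thus downstream of the start of Myd88 in that span. Capitals mark bases that match one of the motifs listed after them.
Myd88, chr9:119340042-119340268: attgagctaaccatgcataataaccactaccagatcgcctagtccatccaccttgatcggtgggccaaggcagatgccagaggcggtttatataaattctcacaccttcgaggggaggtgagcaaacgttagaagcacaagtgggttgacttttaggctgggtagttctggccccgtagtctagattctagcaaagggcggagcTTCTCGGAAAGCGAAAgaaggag
Ticam1, chr17:56276787-56277017: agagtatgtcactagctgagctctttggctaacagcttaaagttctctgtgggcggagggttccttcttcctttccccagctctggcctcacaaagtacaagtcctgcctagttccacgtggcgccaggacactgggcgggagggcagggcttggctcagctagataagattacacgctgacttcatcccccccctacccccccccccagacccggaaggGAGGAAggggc

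Motifs were searched on both strands of the 250 bases before the start, in 32817 RefSeq promoters. They were an NF-kB form (GGG, NN, TTTCC, held by 1.41% of all promoters), an interferon response form or ISRE (GAAA, NN, GAAA, 2.97%), a STAT form (TTCNNNGAA, 7.01%), an AP-1 form (TGANTCA, 6.75%) and a PU.1 form (GAGGAA, 23.3%). The capitals of Myd88 hold an overlapping STAT form, TTCTCGGAA, and ISRE form, GAAAGCGAAA, with the ISRE form 40 to 31 bases before the start. The capitals of Ticam1 hold the PU.1 form alone. RefSeq promoters were matched for 7 of the 10 genes, all but Tlr4, Cd14 and Ly96. The Tlr3 window held an NF-kB form, GGGAGTTTCC, at bases that lie within an M21 exon of Tlr3 or Gm45542. Neither window of Irak3 nor that of Tlr2 held any of the 5 motifs. The Tlr1 windows held a PU.1 form and a STAT form, the STAT form within an M21 exon of Tlr1. In Tlr6, 1 of the windows held overlapping ISRE forms. A match of letters is no evidence of binding, and a missing match says nothing of a factor.

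Whether pairs of these genes changed by unequal amounts was tested within libraries, where the ratio of 2 genes needs no scaling between libraries. Each is the log2 ratio of counts. The pairs were picked from genes that were chosen with earlier results of these data known. Adjustment over the pairs does not cover that choice. Of 8 ratios compared, 5 differed between the groups with no overlap, each at an exact two-sided permutation p of 0.0286, the smallest that 4 against 4 libraries allow, and at 0.0457 after Benjamini-Hochberg adjustment over the 8.

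Irak3 rose more than Myd88, the adaptor it restrains. The log2 ratio of Irak3 to Myd88 was -2.39 ± 0.28 in LLC_CM and -3.25 ± 0.17 in NCM (SD, n = 4, exact permutation p = 0.0286), a difference of 0.86. Ticam1 counts were 0.403 to 0.442 of Myd88 counts in LLC_CM and 0.586 to 0.642 in NCM, a log2 difference of -0.52 (n = 4, exact permutation p = 0.0286). Ticam1 was lower relative to Myd88 in every LLC_CM library than in every NCM library.

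Tlr3 rose more than Tlr4, with a log2 ratio of -0.49 ± 0.08 in LLC_CM and -1.25 ± 0.12 in NCM (SD, n = 4, exact permutation p = 0.0286). Tlr2 counts were 0.582 to 0.687 of Tlr4 counts in LLC_CM and 0.747 to 0.892 in NCM, a log2 difference of -0.42 (n = 4, exact permutation p = 0.0286). For Tlr1 to Tlr2 the log2 difference was 1.23 (n = 4, exact permutation p = 0.0286), and 0.71 without NCM replicate 3. With any 1 of the 4 LLC_CM libraries left out, the adjusted p was 0.0571 for the 4 ratios other than Tlr1 to Tlr2. That of Tlr1 to Tlr2 reached 0.0914 to 0.137, so all 5 missed 0.05. The exact permutation p of the other 4 stayed at 0.0286, the smallest that 3 against 4 libraries allow. An adjusted p of 0.0457 needs all 5 ratios at the smallest p, so the 4 missed 0.05 because Tlr1 to Tlr2 no longer stood there. With any NCM library left out all 5 stayed at 0.0457.

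The co-receptors were not told apart from Tlr4, nor Tlr6 from Tlr2. The log2 ratio of Cd14 to Tlr4 was -2.52 ± 0.11 in LLC_CM and -2.68 ± 0.18 in NCM (SD, n = 4, exact permutation p = 0.229). That of Ly96 to Tlr4 was -2.37 ± 0.32 in LLC_CM and -2.28 ± 0.22 in NCM (p = 0.657, exact permutation), and that of Tlr6 to Tlr2 was -2.17 ± 0.23 in LLC_CM and -2.08 ± 0.22 in NCM (p = 0.543, exact permutation). These tests do not show that the genes changed alike.

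**Figure D3:**
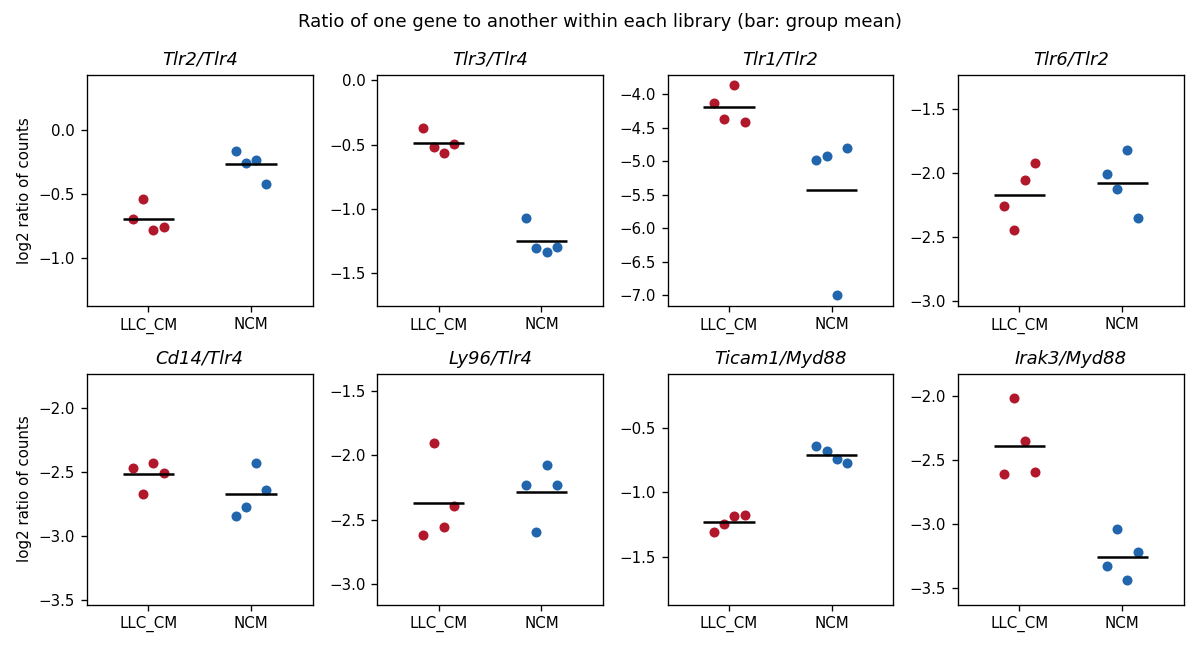
Log2 ratio of the counts of 1 gene to another within each library, LLC_CM in red and NCM in blue, with a bar at each group mean. The groups are apart for Tlr2/Tlr4, Tlr3/Tlr4, Tlr1/Tlr2, Ticam1/Myd88 and Irak3/Myd88 and overlap for the other 3 pairs. The lowest point of Tlr1/Tlr2 is NCM replicate 3.

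Levels were compared between genes as CPM per 1000 bases of the gene length in the deposited table. In LLC_CM the order was Myd88 (17.9), Ticam1 (6.57), Tlr2 (5.19), Ly96 (4.89), Tlr4 (4.52), Tlr3 (4.08), Cd14 (2.77), Irak3 (2.40), Tlr6 (1.32) and Tlr1 (0.318), as mean CPM per 1000 bases. From Ticam1 down to Tlr3 each gene overlapped the next in its range over libraries, as did Cd14 and Irak3. In NCM the order was Myd88 (12.4), Ticam1 (6.54), Tlr2 (5.36), Ly96 (3.93), Tlr4 (3.50), Cd14 (1.93), Tlr3 (1.86), Tlr6 (1.49), Irak3 (0.907) and Tlr1 (0.159). There the ranges of Ticam1 and Tlr2, of Ly96 and Tlr4, of Cd14 and Tlr3, and of Tlr3 and Tlr6 overlapped. The range of Tlr3 in NCM, 1.67 to 2.15, overlapped those of Cd14 and Tlr6. In LLC_CM, at 3.60 to 4.56, it overlapped that of Tlr4 instead. Within libraries, Tlr4 was above Tlr3 in every LLC_CM library. Tlr3 was above Tlr6 in every NCM library but replicate 3. Irak3 ranked above Tlr6 in LLC_CM and below it in NCM, without overlap in either group.

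**Figure D4:**
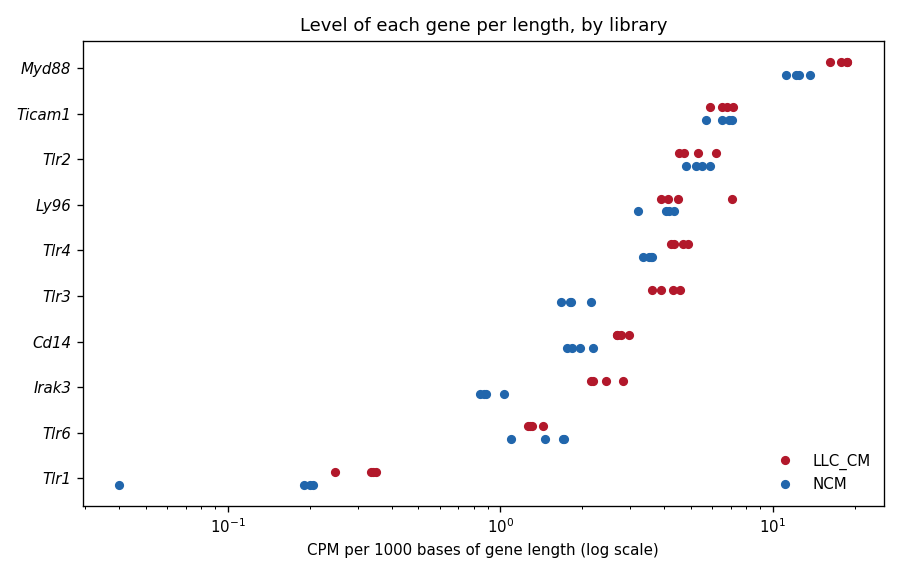
Level of each gene per 1000 bases of gene length in each library, on a log axis, LLC_CM in red above NCM in blue. Myd88 lies apart at the high end in both groups and Tlr1 at the low end. The red points of Tlr3 reach those of Tlr4, and its blue points lie with those of Cd14.

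The genes whose values over the 8 libraries lay closest to those of Irak3, by Euclidean distance of centred log2 CPM, were Pde3a (0.25), Fzd1 (0.29) and Cxcl12 (0.32). Pde3a encodes a cyclic nucleotide phosphodiesterase, Fzd1 a Wnt receptor and Cxcl12 a chemokine. They stood at 2.64 ± 0.48 against 0.92 ± 0.05 CPM, 35.2 ± 3.02 against 13.4 ± 1.30 CPM and 274 ± 19.3 against 113 ± 7.90 CPM in LLC_CM against NCM (SD, n = 4).

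The rest of the Toll-like receptor family was sparse apart from Tlr5, the flagellin receptor. Tlr5 stood at 18.5, 14.8, 17.2 and 16.6 CPM in LLC_CM, against 12.1, 14.5, 11.3 and 12.6 CPM in NCM, and rose 1.33-fold (log2 0.41 ± 0.10, SE, edgeR, adjusted p = 0.0047). Tlr8, Tlr9, Tlr11 and Tlr12 had no count in any library, which allows up to 3 counts per library. Tlr7, a sensor of single-stranded RNA, had 0, 1, 9 and 0 counts in LLC_CM and 0 counts in all NCM libraries, so without LLC_CM replicate 3 a single count is left. Tlr13 had 5, 0, 0 and 0 counts in LLC_CM, all from replicate 1, against 2, 3, 2 and 4 counts in NCM. Both were too sparse to test. The 6 family members tested were Tlr5 and the receptors of the main set. Of the 6, 4 rose, counting the weak call of Tlr1, and none fell. That made 66.7% called against 36.9% of all genes, with a median log2 fold change of 0.39.

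Among receptor cofactors and trafficking genes, 6 of 7 tested rose and none fell. That made 85.7% called against 36.9% of all genes, with a median log2 fold change of 0.36. Lbp, which encodes the lipopolysaccharide-binding protein that delivers its ligand to CD14, stood at 71.7, 64.1, 75.0 and 78.9 CPM in LLC_CM, against 1.09, 2.13, 1.80 and 0.662 CPM in NCM. Its log2 fold change was 5.69 ± 0.20 (SE, edgeR, adjusted p = 4.8e-10), against 0.52 ± 0.14 for Cd14, the receptor it feeds. The chaperone genes that help Toll-like receptors fold rose slightly, with a log2 fold change of 0.36 ± 0.09 for Hsp90b1 and 0.33 ± 0.08 for its partner Cnpy3 (SE, edgeR, adjusted p = 0.0034 and 0.0045). Unc93b1, which escorts TLR3 to endosomes, had only 11 counts over LLC_CM and 16 over NCM and was not tested.

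Among adaptors and proximal signalling genes the changes were small and in both directions, 3 higher, 4 lower and 14 not called of 21 tested, 33.3% called against 36.9% of all genes, with a median log2 fold change of -0.02. Besides Myd88, Ube2n, the ubiquitin-conjugating enzyme that works with TRAF6, and Tab2, a scaffold of the TAK1 kinase, rose, with log2 fold changes of 0.28 ± 0.06 and 0.23 ± 0.06 (SE, edgeR, adjusted p = 0.0018 and 0.0076). Map3k7, which encodes TAK1, fell to 149 ± 5.11 CPM in LLC_CM, against 170 ± 8.42 CPM in NCM (SD, n = 4, edgeR, adjusted p = 0.012). Ticam2, the bridging adaptor for TRIF at TLR4, had 6 counts over LLC_CM and 26 over NCM and was not tested.

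Among inhibitors of the pathway, 4 rose, 3 fell and 4 were not called of 11 tested. That made 63.6% called against 36.9% of all genes, with a median log2 fold change of -0.03. Irak3 rose most. Tnip1 and Tnfaip3, which limit NF-kB through ubiquitin, had log2 fold changes of 0.78 ± 0.09 and 0.54 ± 0.11, and Zc3h12a, an RNase that degrades cytokine transcripts, of 0.49 ± 0.13 (SE, edgeR, adjusted p = 1e-05, 0.001 and 0.0093). The 3 that fell were Peli3, Otud7b and Tollip. Peli3, a ubiquitin ligase of the Pellino family, stood at 2.77, 1.74, 2.60 and 2.66 CPM in LLC_CM, against 3.58, 3.58, 4.56 and 3.38 CPM in NCM (log2 fold change -0.62 ± 0.18, SE, edgeR, adjusted p = 0.012). Otud7b, a deubiquitinase, and Tollip, an adaptor-like inhibitor, had log2 fold changes of -0.18 ± 0.07 and -0.16 ± 0.06 (SE, edgeR, adjusted p = 0.049 and 0.035). Sigirr, an inhibitory receptor, had 10 counts over LLC_CM and 5 over NCM and was not tested.

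Among genes for endogenous ligands of these receptors, 5 of 8 tested rose and none fell. That made 62.5% called against 36.9% of all genes, with a median log2 fold change of 0.45. Vcan, the proteoglycan versican, stood at 331, 299, 261 and 284 CPM in LLC_CM, against 71.0, 71.6, 50.9 and 78.8 CPM in NCM (log2 fold change 2.11 ± 0.12, SE, edgeR, adjusted p = 2e-08). Dcn, the matrix proteoglycan decorin, rose 2.08-fold to 1694 ± 110 CPM in LLC_CM, against 813 ± 54.4 CPM in NCM (SD, n = 4, edgeR, adjusted p = 3.8e-08). The serum amyloid A gene Saa3 summed to 938 counts in LLC_CM and 1 in NCM, and passed the count filter through LLC_CM alone.

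The target genes of the pathway that could be tested were mostly higher. Of the 14 listed MyD88-dependent targets 7 were tested, of which 5 rose and none fell, 71.4% called against 36.9% of all genes. The median log2 fold change of the 7 was 2.94, which is the value of Il6. Nfkbia, at 31.6 CPM in LLC_CM and 31.5 CPM in NCM, and Ptgs2 were not called. Their log2 fold changes were 0.004 ± 0.072 and -0.24 ± 0.26 (SE, edgeR, adjusted p = 0.97 and 0.51). Lcn2 stood at 52.2 ± 9.16 CPM in LLC_CM and 0.922 ± 0.354 CPM in NCM (SD, n = 4). The chemokine genes Ccl2 and Ccl7 rose to 1.72 and 1.68 CPM in LLC_CM, against 0.154 and 0.128 CPM in NCM (log2 3.44 ± 0.38 and 3.65 ± 0.45, SE, edgeR, adjusted p = 3.4e-06 and 1.3e-05). Cxcl2, Cxcl5, Il1b, Tnf and Csf3 had no count in any library. Of the 10 listed TRIF and interferon targets 7 were tested, of which 6 rose and none fell. That made 85.7% called against 36.9% of all genes, with a median log2 fold change of 1.45. The risen genes include the interferon-induced genes Ifit1 and Ifit3 and the transcription factor gene Irf1, with log2 fold changes of 3.69 ± 0.28, 2.71 ± 0.23 and 0.76 ± 0.06 (SE, edgeR, adjusted p = 7.1e-08, 1.8e-07 and 2e-07). Ifit2 was not called, with a log2 fold change of -0.11 ± 0.10 (SE, edgeR, adjusted p = 0.42). Ifnb1, which encodes interferon beta, had no count. Ccl2, Ccl7, Il6, Ccl5 and Ifit1 had 18, 15, 12, 8 and 36 counts over NCM. Each passed the count filter through LLC_CM, where it was high, so a rise among them was partly set by the filter. Other receptors and cytokines are also known to raise the targets of both lists.

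**Figure D5:**
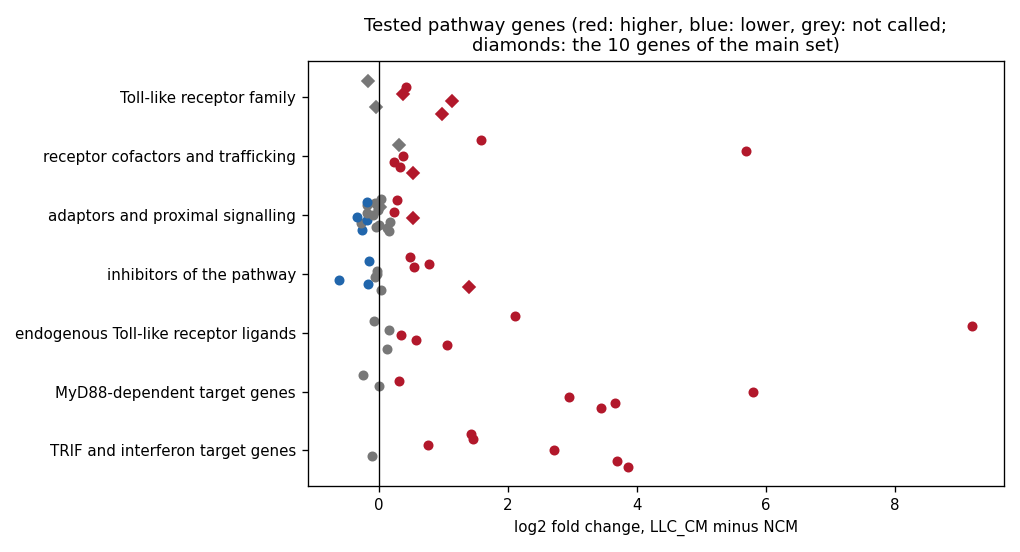
Log2 fold change, LLC_CM minus NCM, of each tested gene of the 7 pathway lists, a row of points per list. Red genes were higher, blue lower and grey not called, and diamonds are genes of the main set of 10. Most genes of the adaptor row lie near 0, with the diamond of Myd88 apart at 0.53. The points farthest right are Saa3, a fitted value against 1 count in NCM, then Lcn2 and Lbp.

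Over the 7 lists together 33 of 67 tested genes rose, 7 fell and 27 were not called, 59.7% called against 36.9% of all genes tested. Without the 10 main genes, 27 rose and 7 fell of 57. The lists were written with results of these data known, and hold genes that passed the count filter through LLC_CM alone. No test of the lists was made.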

How the data were processed

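RNA of 8 MC3T3 libraries was sequenced from poly(A)-selected libraries made with a kit that does not mark strand, per the labels' protocols. The authors deposited raw read counts per gene. CASAVA, STAR, featureCounts and the mm10 build are named in the submitters' processing notes, and their versions are not given in these sources. The gene length in the deposited table scaled levels between genes.

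Genes were tested with edgeR 4.0.16 (limma 3.58.1, R 4.3.3): TMM factors, filterByExpr, robust quasi-likelihood F test without covariates, and Benjamini-Hochberg adjustment over 14991 genes at 0.05. SE was taken as |log2 fold change| / square root of F. On simulated counts the fit recovered 80.6% of 1.5-fold, 85.1% of 2-fold and 97.0% of 4-fold changes, and called 13 unchanged genes. Only 67, 67 and 66 genes were changed there, far fewer than were called here, and changes below 1.5-fold were not simulated. Log2 ratios of 2 genes added 0.5 counts. No library was a repeat of another of its group: the lowest chi-square per degree of freedom was 7.07. Transcripts were matched with blastn 2.17.0, and sequences are from RefSeq, GRCm38.p6.

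The members and lists were chosen with earlier results of these data known. All 10 members are named, plus up to 3 other genes per list with the smallest adjusted p (the most abundant where none passed), called markers of at least 1 CPM, and the 3 nearest patterns. Genes given for their counts alone, Peli3, Otud7b, Tollip, Il6, Ccl5, Acaa1a, Tmbim4 and the untested genes were chosen after their values were seen. So were the uncalled genes Nfkbia, Ptgs2, Ifit2, Cd68, Csf1r and Spi1. Alternatives were DESeq2 1.42.0 and its size factors, library size alone, 2 other count filters, limma-voom, a replicate block, an adjusted p of 0.01 and leaving out each library. Floors cover counting error only.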

Additional observations from a re-analysis of the deposited data

Results flagged for a closer look

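In 8 of 96 groups of 4 libraries, the gap between an extreme library and its neighbour was above the 95% critical share of the group's range. Chance alone gives about 1 in 20. Tlr1 was low in LLC_CM replicate 4, at 0.658 CPM, and in NCM replicate 3, at 0.106 CPM. The NCM value rests on 3 counts. The log2 ratio of Tlr1 to Tlr2 was low in that NCM library too, at -7.00. The log2 ratio of Tlr3 to Tlr4 was high in NCM replicate 1, at -1.07, and still below all LLC_CM values. Alpl was low in LLC_CM replicate 2, at 12.5 CPM, Lcn2 was low in LLC_CM replicate 3, at 38.5 CPM, and Runx2 was low in NCM replicate 2, at 424 CPM. Saa3 had its only NCM count in replicate 2, at 0.035 CPM, below the floor of 0.106 CPM in that library.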

How the results depend on the processing

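Calls of Irak3, Tlr3, Myd88, Cd14 and Tlr4 held under all 15 alternatives run for each. Their adjusted p reached at most 6.2e-06, 1.1e-05, 0.00054, 0.031 and 0.0064. That of Tlr1 ranged from 0.04 to 0.11, so that the call held in 6 of 14 and was lost in 8, with no value under the filter of 1 CPM in 4 libraries. Tlr2, Tlr6, Ly96 and Ticam1 were called under none. The sign of Ticam1 turned with DESeq2 size factors (-0.00018), and its log2 fold change ran from -0.064 to 0.058 when 1 library was left out, that of Tlr2 from -0.14 to 0.0013; the cause was not tested. Genes called ranged from 3946 at 0.01 to 5737 with the DESeq2 test, members called from 5 to 6 and pathway genes called from 29 to 41. With the replicate block 5473 genes and 5 members were called, with Tlr1 at 0.051. Same-numbered libraries had correlations of 0.07, -0.04, 0.20 and -0.03 in their deviations from the group means, so the numbers were not read as pairs, and not every library correlated best with its own number. For the ratios the block uses sign flips of 4 differences, whose p cannot go below 0.125, so none could pass. The differences stay at -0.42 (Tlr2/Tlr4), 0.77 (Tlr3/Tlr4), 1.23 (Tlr1/Tlr2), -0.52 (Ticam1/Myd88) and 0.86 (Irak3/Myd88). With 1 library left out these ran from -0.47 to -0.39, 0.73 to 0.83, 0.71 to 1.44, -0.54 to -0.50 and 0.74 to 0.93, with adjusted p up to 0.137 for Tlr1/Tlr2 and 0.0571 for the others. Tlr1 rests on 107 counts over LLC_CM and 50 over NCM.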
